A study of Mus musculus with 62 samples.

Results

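The genes of glycolysis and glycogen metabolism were examined in the mouse gastrocnemius, a calf muscle, during growth of a melanoma. The set is 32 genes, taken by name from a table of 47643 gene symbols, and all 32 were found and were abundant enough to be tested. It holds 2 glucose transporters, 3 enzymes of glucose entry, 4 genes of the phosphofructokinase step and 9 enzymes of lower glycolysis. It also holds 3 genes of lactate production and export, 2 of side branches, 6 of glycogen synthesis and 3 of glycogen breakdown. Female mice aged 2 months received cachectic melanoma cells (CAC), which bring on cachexia, the wasting of muscle and fat seen with some tumours. Other mice received non-cachectic melanoma cells (NCAC) or were mock-injected (Con), and muscle was analysed after 2, 4, 6 or 8 weeks. Each treatment had 5 libraries at each week, except for CAC at 8 weeks, which had 7, so that 62 libraries entered the analysis. The series text names NCI Ath/nude mice while the labels of all libraries name C57BL6/J, and no allele or further agent is given for any group. A treatment tag names the cachectic cells for all 62 libraries, NCAC and Con included, and goes against the descriptions, from which the groups were taken. No melanoma line is named in the labels, which call the libraries biological replicates.

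Muscle takes up glucose through membrane transporters, traps it as glucose 6-phosphate with hexokinase, and either breaks it down to pyruvate and lactate or stores it as glycogen. The commitment to breakdown is made by phosphofructokinase, and the storage branch runs through phosphoglucomutase, UDP-glucose pyrophosphorylase, glycogenin, glycogen synthase and the branching enzyme. Glycogen phosphorylase, which is switched on by phosphorylase kinase, releases the stored glucose during contraction. Fast fibres, of which the gastrocnemius is mostly built, carry their own forms of several of these enzymes at very high levels, while other forms serve most other tissues.

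Depth, estimated from the values and the exon lengths of the genes, was 39.62 to 48.34 M reads per library. The gastrocnemius label was matched by fast fibre markers, which held 12.3% to 13.7% of the summed TPM in Con at 8 weeks. TPM, the read count of a gene per length scaled to the same total in each library, is a share of all transcripts, and transcripts of the mitochondrial genome held 33.5% ± 3.02 of it in Con (SD, n = 5) and 24.2% ± 3.53 in CAC (SD, n = 7) at 8 weeks. Among the 12364 genes tested, the median log2 change from Con to CAC was 0.09, 0.17, 0.28 and 0.36 at 2, 4, 6 and 8 weeks. A member with no change in TPM therefore lay below the middle of the other genes. Median-ratio scaling sets the middle of all genes to the same level in every library. It lowered the all-gene median by 0.34 for CAC against Con at 8 weeks and by 0.27 at 6 weeks. For many changes of members the value on that scale is given as well.

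Markers of macrophages and endothelium were higher in CAC as well. All 11 tested macrophage markers were higher in CAC than in Con at 8 weeks, and their summed level was 94.0 to 350 TPM in Con and 289 to 918 TPM in CAC. Of 7 endothelium markers 6 were higher and 1 was lower, with sums of 86.4 to 128 TPM in Con and 150 to 259 TPM in CAC. Neutrophil markers were higher for 2 of 3 tested, adipocyte markers for 2 of 5, fibroblast markers for 2 of 6 and erythroid markers for 0 of 5. These counts stand beside 65.3% of all tested genes that were higher in this comparison. None of the 5 melanocyte markers passed the filter on low values, and their sum was at most 1.59 TPM in any library. Fast fibre markers held 10.6% to 14.3% of TPM in CAC at 8 weeks, with 3 of 10 higher and 3 lower. Of 7 slow fibre markers 3 were higher and 0 were lower, beside the same 65.3% of all tested genes that were higher. The part of these cells in the results below was not tested. In bulk muscle, fewer cells of a type and less RNA per cell cannot be told apart.

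The members differed in level by more than 3 orders of magnitude in mock-injected muscle. At 8 weeks in Con, the mean level per length was highest for the aldolase gene Aldoa, at 9218 TPM, followed by the muscle enolase Eno3 at 7659 TPM, the muscle glycogen phosphorylase Pygm at 5223 TPM and the muscle phosphoglycerate mutase Pgam2 at 4785 TPM. The lowest members were the liver-type phosphofructokinase Pfkl at 6.17 TPM, the glucose transporter Slc2a1 at 5.49 TPM, the hexokinase Hk1 at 2.51 TPM and the phosphoglucomutase listed as Pgm1 at 1.87 TPM. The table uses older names for the 2 phosphoglucomutases. Its Pgm2 values give whole reads in 62 of 62 libraries with the exon length of the chromosome 4 gene (99929414 to 99987294), now named Pgm1, the main phosphoglucomutase of muscle. Its Pgm1 values do so with the chromosome 5 gene (64092950 to 64128351), now named Pgm2, and the table's names are kept below. For 11 members, Aldoa, Fbp2, Gapdh, Gys1, Ldha, Pfkl, Pfkm, Pgam1, Phkg1, Pkm and Tpi1, the annotated exon length gave whole reads in only 7 to 18 libraries. How reads shared with near-identical copies, which Gapdh, Ldha, Tpi1 and Pgam1 are known to have, were counted is not given in the sources used here, so the levels of these genes are less certain.

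The comparison of CAC with Con asked how the pathway differed from that of mock-injected mice as cachexia developed. At 8 weeks 12 of the 32 members were higher in CAC and 10 were lower (limma, adjusted p under 0.05), where 65.3% of all tested genes were higher and 5.55% were lower, 70.8% together. Glucose entry and glycogen synthesis held 7 of the higher members, namely Hk1, Gpi1, Pgm1, Ugp2, Gys1, Gyg and Gbe1, and lower glycolysis held 5 of the lower ones, Tpi1, Pgk1, Pgam2, Eno3 and Pkm. At 6 weeks 11 members were higher and 7 were lower, against 51.8% and 5.41% of all genes, 57.2% together. All CAC libraries lay on one side of all Con libraries for 11 members at 6 weeks and for 3 at 8 weeks, Gpi1, Aldoa and Pgm1, which holds for 30.9% and 27% of all genes. The median log2 change of the members was 0.19 at 6 weeks and 0.07 at 8 weeks, and that of all tested genes was 0.28 and 0.36. Median-ratio scaling left 5 members higher and 13 lower at 6 weeks, where 1752 of all tested genes were higher and 2135 lower. At 8 weeks it left 3 members higher and 18 lower, where 2766 of all tested genes were higher and 2764 lower. The summed level of the 32 members was 4.59% ± 0.243 of TPM in Con (SD, n = 5) and 4.56% ± 0.695 in CAC (SD, n = 7) at 8 weeks. Without CAC replicate 6 the count at 8 weeks was 11 higher and 4 lower. A fit of CAC and Con at 8 weeks alone gave 10 higher and 2 lower, where 7426 of all tested genes were called. In that fit Pfkl and Ugp2 lost the higher call, and Pfkfb1 and Pkm were the only members called lower. The main model takes the same spread for every group, which understates the SE where CAC at 8 weeks spread more widely. The SD at 8 weeks was 1596 TPM in CAC and 368 TPM in Con for Pgam2, but 2.64 and 3.17 TPM for Pfkfb1.

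**Figure D1:**
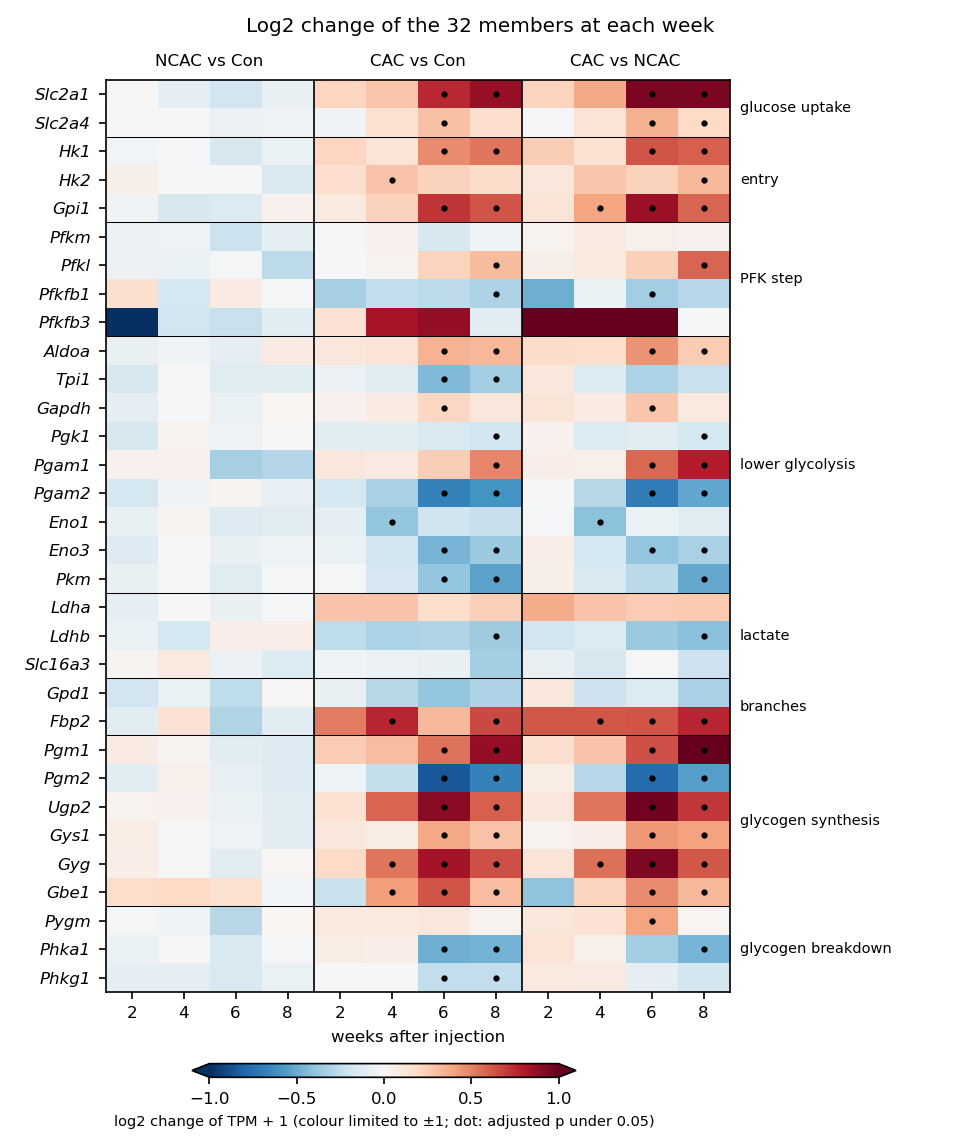
Log2 change of TPM + 1 for the 32 members (rows, grouped by step) at 2, 4, 6 and 8 weeks in NCAC against Con, CAC against Con and CAC against NCAC, with colour limited to changes of 1 in size and dots for an adjusted p under 0.05. The NCAC columns carry no dot, and the CAC columns at 6 and 8 weeks carry red cells in glucose entry and glycogen synthesis and blue cells in lower glycolysis, of which the red ones rest in part on the scale of TPM, while the dark cells of Pfkfb3 carry no dot.

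Of the 2 glucose transporters, the widely expressed Slc2a1 rose at 6 and 8 weeks under both scales, and the insulin-responsive Slc2a4 was higher at 6 weeks in TPM but not with median-ratio scaling. Slc2a1, on chromosome 4 (119108711 to 119137983), was at 5.16, 7.69, 5.10, 4.92 and 4.59 TPM in Con at 8 weeks. In CAC it was at 5.25 TPM in the lowest library, 10.5 in the median and 17.4 in the highest, and in NCAC at 6.13, 5.65, 3.56, 4.27 and 6.26 TPM. At 6 weeks all 5 CAC libraries, at 9.29 to 11.4 TPM, lay above all Con libraries, while at 8 weeks CAC replicate 3 lay within the Con range. Relative to Con, the log2 change of Slc2a1 was 0.75 at 6 weeks (SE 0.21, adjusted p = 0.00223) and 0.87 at 8 weeks (SE 0.19, adjusted p = 0.000105, limma). Under median-ratio scaling it was 0.46 and 0.50, with adjusted p = 0.0421 and 0.0118. Slc2a4, the transporter that insulin moves to the surface of muscle fibres, had a mean of 362 TPM in Con and 406 TPM in CAC at 8 weeks. Its log2 change was 0.29 at 6 weeks (adjusted p = 0.00445) and 0.16 at 8 weeks (adjusted p = 0.0627), and with median-ratio scaling these turned to -0.04 and -0.25, the second with adjusted p = 0.00947.

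All 3 enzymes of glucose entry had positive changes, and 2 of them passed the test at 6 and 8 weeks. Hk1, the hexokinase of most tissues, was at 2.97, 3.05, 2.26, 1.94 and 2.31 TPM in Con at 8 weeks. Its lowest, median and highest CAC values were 2.77, 4.16 and 5.28 TPM, so that only CAC replicate 1 overlapped Con. Hk1 rose by 0.53 on the log2 scale (SE 0.10, adjusted p = 8.98e-06), and it held at 0.21 with median-ratio scaling (adjusted p = 0.0254). Hk2, the main hexokinase of insulin-sensitive muscle, differed by 0.18 at 8 weeks (adjusted p = 0.0964) on the scale of TPM and by -0.23 after median-ratio scaling (adjusted p = 0.0351). Gpi1, which turns glucose 6-phosphate into fructose 6-phosphate, lies on chromosome 7 (34201330 to 34230336) and was at 267, 281, 261, 253 and 255 TPM in Con. In CAC at 8 weeks it ranged from 288 over a median of 400 to 625 TPM, and every CAC library was above every Con library. The change of Gpi1 was 0.72 at 6 weeks (adjusted p = 2.49e-05) and 0.63 at 8 weeks (SE 0.12, adjusted p = 1.3e-05), and 0.39 (adjusted p = 0.00907) and 0.21 (adjusted p = 0.103) with median-ratio scaling.

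At the phosphofructokinase step 1 of 4 genes was called higher at 8 weeks and 1 lower, and both calls were fragile. The muscle enzyme gene Pfkm had a mean of 2562 TPM in Con and 2505 TPM in CAC at 8 weeks, a log2 difference of -0.05 (adjusted p = 0.584) that was -0.46 after median-ratio scaling (adjusted p = 0.000215). The liver-type Pfkl was at 4.35 to 7.52 TPM in Con and 6.27 to 10.3 TPM in CAC, and the groups overlapped. Pfkl was 0.32 higher (adjusted p = 0.0119), but the call was lost without Con replicate 4 (adjusted p = 0.0971) and the direction turned with median-ratio scaling, to -0.04. Pfkfb1 encodes one of the enzymes that set the level of the activator fructose 2,6-bisphosphate. Its log2 change was -0.31 (adjusted p = 0.048), a call that was lost in 8 of the 12 fits that left out 1 library. Pfkfb3, another gene of that enzyme family, spread from 24.5 to 127 TPM in Con, from 21.9 to 203 TPM in NCAC and from 17.6 to 165 TPM in CAC at 8 weeks, and passed no test at any week.

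Lower glycolysis, the 9 enzymes from aldolase to pyruvate kinase, held 5 members called lower at 8 weeks and 2 called higher, and of the 5 only Pkm was still called when CAC and Con at 8 weeks were fitted alone. Pgam2, the phosphoglycerate mutase of muscle, was at 4616, 4977, 5324, 4387 and 4620 TPM in Con. In CAC its lowest, median and highest values were 1066, 3375 and 5696 TPM. Replicates 3 and 5 of CAC lay above all Con libraries and the other 5 lay below them. The log2 change of Pgam2 was -0.68 at 6 weeks (SE 0.21, adjusted p = 0.00682) and -0.60 at 8 weeks (SE 0.20, adjusted p = 0.00675), and at 6 weeks the highest CAC value, 3579 TPM, was below the lowest Con value, 4010 TPM. Fitted with the 2 groups at 8 weeks alone, Pgam2 had an adjusted p = 0.122. Pkm, the pyruvate kinase gene, was at 2822, 3104, 2841, 2715 and 2740 TPM in Con at 8 weeks. Its CAC values were 1287 TPM at the lowest, 1841 at the median and 3222 at the highest, with 5 of 7 libraries below all Con libraries. Pkm fell by 0.53 (SE 0.13, adjusted p = 0.000242), and its call held in each of the 12 fits without 1 library. The calls for the enolase Eno3 (-0.37), the triose phosphate isomerase Tpi1 (-0.34) and the phosphoglycerate kinase Pgk1 (-0.18) were weaker, with adjusted p = 0.0116, 0.0393 and 0.0339. Without CAC replicate 6 these became 0.069, 0.205 and 0.145. Among all 12 fits without 1 library, the call was lost in 1 for Eno3, 7 for Tpi1 and 6 for Pgk1. Aldoa was 0.33 higher (adjusted p = 0.00143), though -0.08 after median-ratio scaling. The glyceraldehyde phosphate dehydrogenase Gapdh, often used as a reference gene, was 0.21 higher at 6 weeks (adjusted p = 0.0295) and 0.11 at 8 weeks (adjusted p = 0.189), and median-ratio scaling turned both, to -0.12 and -0.30. Its call at 6 weeks was lost in 5 of 10 fits without 1 library, with an adjusted p of up to 0.101.

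The minor phosphoglycerate mutase gene Pgam1, which serves most tissues, moved the other way from Pgam2. It was at 23.1, 28.2, 22.9, 21.9 and 26.1 TPM in Con at 8 weeks, and at 23.8, 30.7 and 49.1 TPM in the lowest, median and highest CAC library. All CAC libraries except replicate 1 were above all Con libraries. Pgam1 was called higher, with a log2 change of 0.49 (SE 0.14, adjusted p = 0.0017), and 0.09 after median-ratio scaling, which was not called. Eno1, the widely expressed enolase, had a log2 change of -0.38 at 4 weeks (adjusted p = 0.017) and differed by -0.23 at 8 weeks (adjusted p = 0.0581), or by -0.63 after median-ratio scaling (adjusted p = 0.000191).

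Ratios between 2 genes of the same step within a library do not depend on the scale of TPM, apart from the added 1. They were compared at 8 weeks for 7 pairs and 2 contrasts with a two-sided exact permutation test, and p was adjusted over the 14 tests. Pgam1 made up 0.51% ± 0.056 of the Pgam1 and Pgam2 transcripts in Con (SD, n = 5), 0.436% ± 0.041 in NCAC (SD, n = 5) and 1.22% ± 0.707 in CAC (SD, n = 7). Its log2 ratio to Pgam2 was 1.09 higher in CAC than in Con and 1.30 higher than in NCAC, with an exact adjusted p = 0.0303 for each. The share of Slc2a1 among the 2 transporters was 1.49% ± 0.288 in Con and 2.64% ± 0.648 in CAC, a log2 difference of 0.70 (exact adjusted p = 0.0303). Hk1 made up 2.42% of the hexokinase pair in Con and 3.4% in CAC, a difference of 0.35, and Pfkl made up 0.24% and 0.319% of its pair, a difference of 0.37, both with an exact adjusted p = 0.0303. In the means of these 4 pairs the form of most other tissues gained on the muscle form, which still held nearly all of each pair. The shares of CAC and Con libraries overlapped in each of the 4. Against NCAC the differences were 0.75, 0.28 and 0.53 for the Slc2a1, Hk1 and Pfkl pairs (exact adjusted p = 0.0303, 0.0398 and 0.0303), and leaving out 1 library lost the call in 5, 8 and 2 of 12 tests, with an exact adjusted p of up to 0.0606, 0.0848 and 0.0606. The enolase pair Eno1 and Eno3 differed by 0.14 (exact adjusted p = 0.149), the lactate dehydrogenase pair Ldhb and Ldha by -0.60 (exact adjusted p = 0.149), and the pair Pfkfb3 and Pfkfb1 by 0.20 (exact adjusted p = 0.751). Against Con, leaving out 1 library lost the call in 6, 4, 4 and 5 of 12 tests for the Hk1, Pfkl, Pgam1 and Slc2a1 pairs. The exact adjusted p rose to as much as 0.0667, 0.0746, 0.0566 and 0.0563 for these pairs, while the direction held in every such test.

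**Figure D2:**
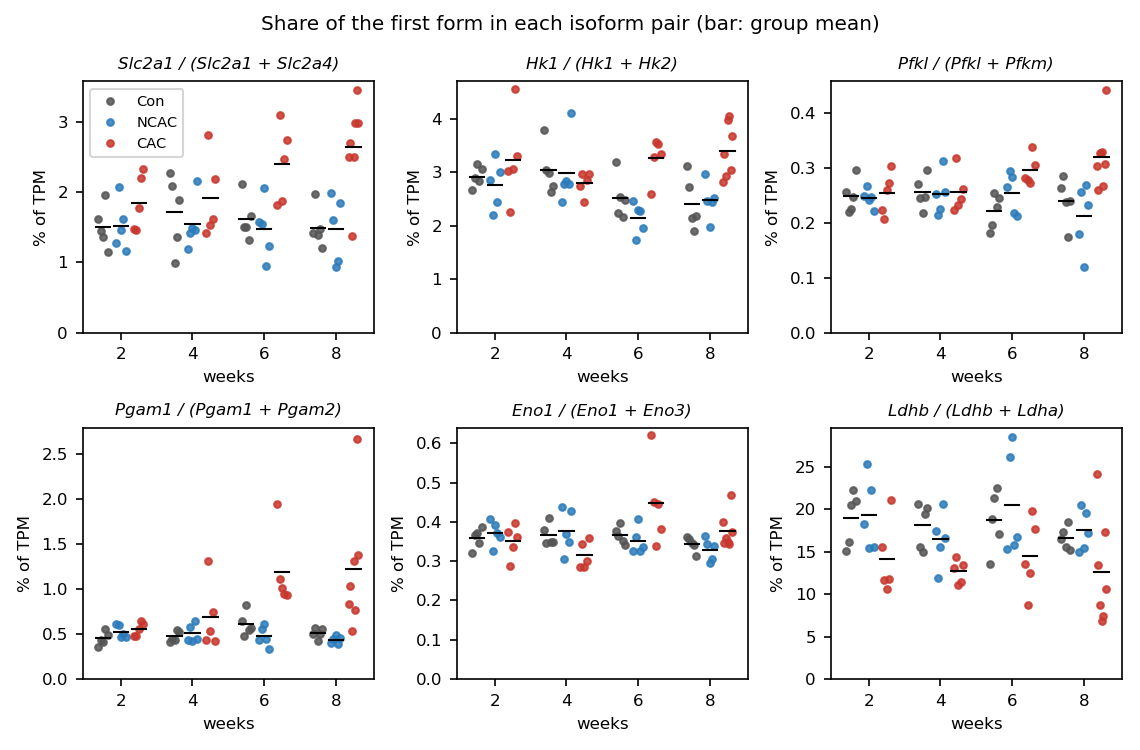
Share of the first gene in the summed TPM of 2 genes of the same step (vertical axes, percent) in each of the 62 libraries by week, with bars at group means. At 8 weeks the CAC mean (red libraries) is above that of Con for the Slc2a1, Hk1, Pfkl and Pgam1 pairs, though CAC and Con libraries overlap in each. In CAC 1 library is at 2.67% for the Pgam1 pair, and the Eno1 and Ldhb pairs passed no test against Con.

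Of the 3 genes of lactate production and export, 1 was called at 8 weeks. Ldha, the lactate dehydrogenase subunit that dominates in fast fibres, was at 1927 to 2353 TPM in Con and 1570 to 3391 TPM in CAC at 8 weeks, so that CAC libraries lay on both sides of Con. The log2 difference was 0.24 (adjusted p = 0.0732), and -0.18 after median-ratio scaling. Ldhb, the heart-type subunit, was lower, by a log2 change of -0.35 (adjusted p = 0.0437), and 7 of 12 fits without 1 library lost the call, with an adjusted p of up to 0.139. Slc16a3, the lactate exporter of fast fibres, differed by -0.34 (adjusted p = 0.125), with 29.2 to 121 TPM in CAC and 69.8 to 106 TPM in Con. In the side branches, Gpd1, the cytosolic glycerol phosphate dehydrogenase, differed by -0.31 (adjusted p = 0.134). The median-ratio values were -0.77, -0.75 and -0.73 for Ldhb, Slc16a3 and Gpd1, with adjusted p = 0.000262, 0.00408 and 0.00625.

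Fbp2, the muscle fructose bisphosphatase, which runs the phosphofructokinase step backwards, was higher in CAC at 4 and 8 weeks. It was at 159, 214, 149, 146 and 198 TPM in Con at 8 weeks, and at 145, 294 and 409 TPM in the lowest, median and highest CAC library. Replicates 1 and 6 of CAC lay within or below the Con range and the other 5 lay above it. Fbp2 differed from Con by a log2 change of 0.76 at 4 weeks (adjusted p = 0.00441), 0.32 at 6 weeks (adjusted p = 0.147) and 0.66 at 8 weeks (SE 0.18, adjusted p = 0.00127). After median-ratio scaling Fbp2 was not called at 4 weeks, at 0.56 (adjusted p = 0.0513), nor at 8 weeks, at 0.24 (adjusted p = 0.297).

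All 6 members of glycogen synthesis were called at 6 and at 8 weeks, beside 57.2% and 70.8% of all genes. Of the 6, 5 were higher and 1 was lower, though with median-ratio scaling only Pgm1 stayed called higher at 8 weeks, and Gys1 and Gbe1 turned below 0. Ugp2 makes UDP-glucose, Gyg is the protein primer on which the chain starts, and the table's Pgm2 interconverts glucose 1-phosphate and glucose 6-phosphate. The promoters of these 3 genes and of Pgam2, 2 that rose and 2 that fell, are shown from 250 bases before to 50 bases after the annotated start, in RefSeq coordinates on GRCm38.p6. Capitals mark matches to ACGTG on either strand, the core of the hypoxia response element. They are chr11:21371218-21371517 on the minus strand for Ugp2, chr3:20155067-20155366 on the minus strand for Gyg, chr4:99929201-99929500 on the plus strand for Pgm2 and chr11:5803747-5804046 on the minus strand for Pgam2.
Ugp2: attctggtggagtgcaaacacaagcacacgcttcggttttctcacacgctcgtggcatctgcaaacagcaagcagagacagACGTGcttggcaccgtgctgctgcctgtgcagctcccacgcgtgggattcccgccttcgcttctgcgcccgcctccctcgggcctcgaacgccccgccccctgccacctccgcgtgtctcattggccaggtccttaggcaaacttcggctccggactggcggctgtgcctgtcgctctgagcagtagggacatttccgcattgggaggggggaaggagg
Gyg: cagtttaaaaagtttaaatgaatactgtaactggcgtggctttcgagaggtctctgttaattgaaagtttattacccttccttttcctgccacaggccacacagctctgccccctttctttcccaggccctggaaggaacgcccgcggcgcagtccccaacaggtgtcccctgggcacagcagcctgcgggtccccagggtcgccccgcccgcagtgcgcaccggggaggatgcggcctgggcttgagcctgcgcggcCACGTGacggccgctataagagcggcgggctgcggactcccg
Pgm2: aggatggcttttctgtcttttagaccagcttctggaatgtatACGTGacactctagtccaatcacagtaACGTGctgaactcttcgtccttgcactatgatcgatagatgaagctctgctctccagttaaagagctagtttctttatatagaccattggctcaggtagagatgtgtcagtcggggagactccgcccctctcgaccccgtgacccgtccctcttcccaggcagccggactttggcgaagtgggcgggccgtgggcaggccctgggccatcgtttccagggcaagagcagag
Pgam2: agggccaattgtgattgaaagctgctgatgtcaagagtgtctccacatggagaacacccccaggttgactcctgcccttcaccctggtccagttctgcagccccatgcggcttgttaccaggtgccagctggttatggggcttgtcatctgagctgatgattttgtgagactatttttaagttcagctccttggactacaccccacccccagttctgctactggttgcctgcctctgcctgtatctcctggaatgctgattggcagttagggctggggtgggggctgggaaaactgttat
Ugp2 has 2 annotated starts in that table, and the one nearest the start of its gene model is shown. Ugp2, Gyg and Pgm2 hold a match here, and Pgam2 holds none.

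RefSeq promoters were found for 30 of the 32 members. Counting a match at any annotated start of a gene, ACGTG was present in 18 of the 30, and in 21.8% of 27025 genes. By call at 8 weeks it was present in 8 of 12 higher members, 3 of 10 lower members and 7 of 8 members that were not called. In the promoter nearest the start of the gene model it was present in 15 of 30 members (6 of 12, 2 of 10 and 7 of 8), beside 19.6% of all 32851 promoters, since Aldoa, Hk1 and Pkm hold it at another start only. CACGTG, which contains ACGTG on both strands and is the E-box form, was present in 5 of 30 members and 8.09% of genes. The forkhead element GTAAACA was present in 0 of 30 members and 4.05% of genes, and the glucocorticoid response half-site pair ACANNNTGT in 2 of 30, Pfkfb1 and Phka1, and 7.9% of genes. The MEF2 element was present in 0 of 30 members and 0.181% of genes. All were searched on both strands, and a match is only a run of letters in this window.

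Ugp2, on chromosome 11 (21321138 to 21371201), was at 436, 463, 432, 454 and 472 TPM in Con at 8 weeks and at 408, 420, 399, 412 and 449 TPM in NCAC. In CAC its lowest, median and highest values were 367, 632 and 1660 TPM. CAC replicates 3 and 5 lay below or within the Con range and the other 5 lay above it. At 6 weeks the CAC libraries were at 1828, 1125, 564, 640 and 542 TPM and all were above the Con libraries, of which the highest was at 469 TPM. The log2 change of Ugp2 was 0.90 at 6 weeks (SE 0.24, adjusted p = 0.00183) and 0.60 at 8 weeks (SE 0.22, adjusted p = 0.0157). Without CAC replicate 6, the library at 1660 TPM, the change at 8 weeks was 0.38 (adjusted p = 0.0866). With median-ratio scaling it was 0.57 at 6 weeks (adjusted p = 0.0369) and 0.18 at 8 weeks (adjusted p = 0.476).

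Gyg, on chromosome 3 (20122084 to 20155317), varied little among control mice, at 296, 337, 317, 317 and 327 TPM in Con at 8 weeks. In CAC it ranged from 336 over a median of 461 to 795 TPM, and only CAC replicate 3 reached the Con range. At 6 weeks the 5 CAC libraries were at 891, 582, 513, 561 and 467 TPM, against at most 343 TPM in Con. The log2 change of Gyg was 0.53 at 4 weeks (adjusted p = 0.00711), 0.83 at 6 weeks (SE 0.15, adjusted p = 1.76e-05) and 0.64 at 8 weeks (SE 0.13, adjusted p = 5.2e-05). The call at 4 weeks was lost without CAC replicate 2 (adjusted p = 0.107) and with median-ratio scaling, at 0.33 (adjusted p = 0.0637). After median-ratio scaling Gyg was 0.50 higher at 6 weeks (adjusted p = 0.00205) and 0.23 at 8 weeks (adjusted p = 0.108). Gys1, the muscle glycogen synthase, was 0.29 higher at 8 weeks (adjusted p = 0.00104), though -0.13 with median-ratio scaling, and Gbe1, the branching enzyme, was 0.31 higher (adjusted p = 0.0372), though -0.09. The call for Gbe1 at 8 weeks was lost in 7 of 12 fits without 1 library, with an adjusted p of up to 0.0878.

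The 2 phosphoglucomutases moved in opposite directions. Pgm2 in the table's naming, the abundant muscle enzyme, was at 928, 1093, 995, 744 and 1040 TPM in Con at 8 weeks. Its lowest, median and highest CAC values were 211, 605 and 1107 TPM, and 4 of the 7 CAC libraries were below all Con libraries. The log2 change of Pgm2 was -0.85 at 6 weeks (SE 0.22, adjusted p = 0.00132) and -0.68 at 8 weeks (SE 0.20, adjusted p = 0.00305), and -1.18 and -1.09 with median-ratio scaling. Fitted with the 2 groups at 8 weeks alone, Pgm2 had an adjusted p = 0.079. Pgm1 in the table's naming was low, at 2.31, 1.61, 1.84, 1.67 and 1.91 TPM in Con at 8 weeks. In CAC it reached 2.44 TPM in the lowest, 4.18 in the median and 7.86 in the highest library, all above Con. Pgm1 rose by 0.88 on log2(TPM + 1) (SE 0.15, adjusted p = 3.63e-06) and by 0.56 with median-ratio scaling (adjusted p = 0.000212). This scale understates the change of a gene near 2 TPM, and a median of 112 reads per library stood behind its value.

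**Figure D3:**
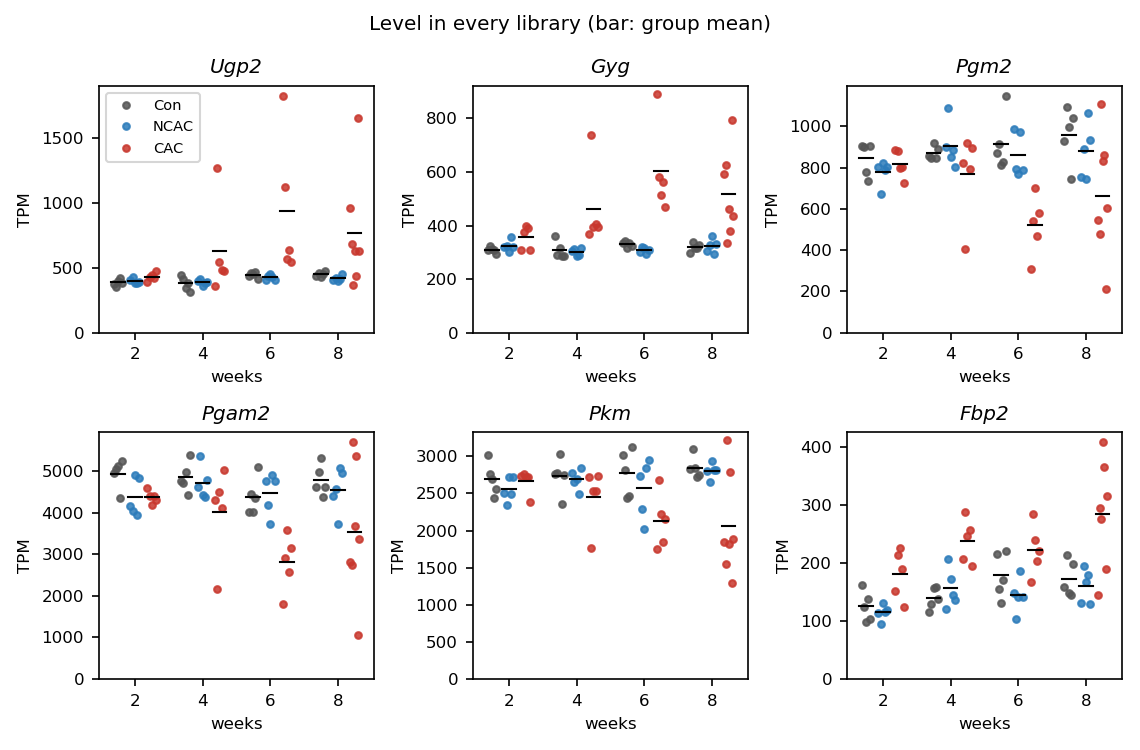
TPM of Ugp2, Gyg, Pgm2, Pgam2, Pkm and Fbp2 in each of the 62 libraries by week, with bars at group means and each vertical axis starting at 0. For Ugp2, Gyg, Pgm2 and Pgam2 the CAC libraries (red) spread more widely than Con and NCAC from 4 weeks on, and at 8 weeks they reach from the control range out to 1660 TPM for Ugp2 and 211 TPM for Pgm2.

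The ratio of Ugp2 to Pgm2, which follow each other in the path from glucose 6-phosphate to glycogen, was looked at after their values had been seen and carries no test. Its mean was 0.437 to 0.499 in the 4 Con groups and 0.433 to 0.516 in the 4 NCAC groups. In CAC it was 0.531 at 2 weeks, 1.06 at 4 weeks, 2.23 at 6 weeks and 1.95 at 8 weeks, with medians of 0.523, 0.594, 1.36 and 1.04. The highest ratios of the series, 3.14, 5.96 and 7.85, belonged to CAC replicate 2 at 4 weeks, replicate 1 at 6 weeks and replicate 6 at 8 weeks. These 3 libraries were the most extreme of their group in many of the members called against Con. Such counts favour the libraries on which calls rested. Eno3, Tpi1, Pgk1, Phka1 and Phkg1 lost the lower call at 8 weeks without replicate 6. Replicate 2 at 4 weeks was the highest in 3 of 4 higher members and the lowest in the 1 lower member, replicate 1 at 6 weeks in 6 of 11 and 7 of 7, and replicate 6 at 8 weeks in 7 of 12 and 8 of 10. Their macrophage sums, 408, 491 and 289 TPM, were the highest of their group at 4 weeks, the second highest at 6 weeks and the lowest at 8 weeks, and their fast fibre shares were 12.1%, 10.8% and 11.4%. At the other end, CAC replicates 3 and 5 at 8 weeks lay below all Con libraries in 2 of the 10 lower members each, while replicates 2, 6 and 7 did so in 10 of 10.

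**Figure D4:**
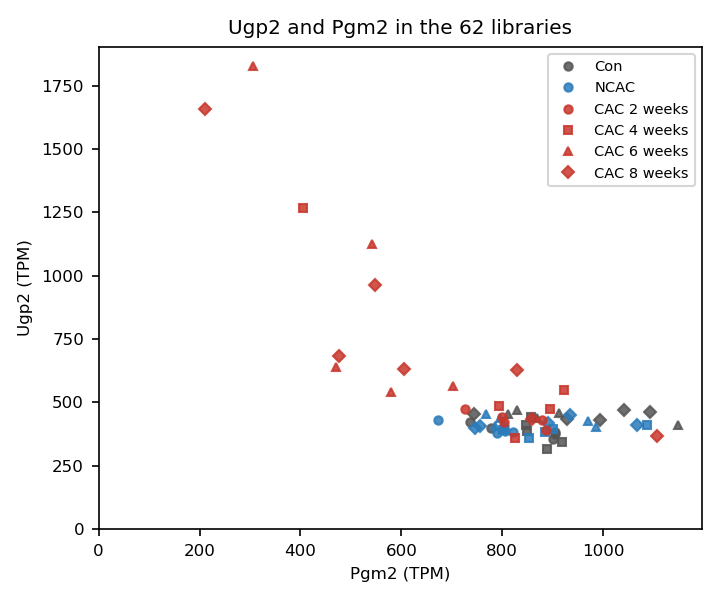
Ugp2 against Pgm2 (both TPM, axes from 0) in the 62 libraries, with CAC marked by week. Con and NCAC libraries form 1 cloud at 316 to 472 TPM of Ugp2, and CAC libraries from 4 weeks on extend from it toward high Ugp2 and low Pgm2.

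Of the 3 genes of glycogen breakdown, 2 were lower at 8 weeks. Pygm, the muscle glycogen phosphorylase, had a mean of 5223 TPM in Con and 5369 TPM in CAC at 8 weeks, a difference of 0.03 (adjusted p = 0.756) that was -0.38 with median-ratio scaling (adjusted p = 0.00729). Phka1, the muscle regulatory subunit of phosphorylase kinase on chromosome X, was at 219, 239, 207, 213 and 218 TPM in Con. Its lowest, median and highest CAC values were 74.7, 175 and 249 TPM, with 4 of 7 libraries below all Con libraries. The log2 change was -0.47 for Phka1 (SE 0.17, adjusted p = 0.0102) and -0.24 for its catalytic partner Phkg1 (adjusted p = 0.022). Without CAC replicate 6 their adjusted p became 0.0638 and 0.113, the call for Phkg1 was also lost without Con replicate 1, and under median-ratio scaling the changes were -0.89 and -0.66, both called.

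Earlier weeks showed few calls. At 2 weeks 0 of 32 members were called in CAC against Con (limma), where 0.283% of all genes were called. At an unadjusted p under 0.05 there were 4 members, and the share of all genes at that threshold was not counted. At 4 weeks Hk2, Fbp2, Gyg and Gbe1 were higher and Eno1 was lower, 5 of 32 members where 25.3% of all genes were called, 23% higher and 2.38% lower. Hk2, Fbp2 and Gyg did not overlap between CAC and Con at 4 weeks, against 16.8% of all genes, and at 2 weeks 0 members were without overlap, against 5.55%. Hk2 differed by 0.29 (adjusted p = 0.0413) and Gbe1 by 0.42 (adjusted p = 0.0317). Without CAC replicate 2 only Fbp2 remained of the 5, without Con replicates 1, 2 or 3 the count was 3, 3 and 2, and with median-ratio scaling only Eno1 was still called of the 5, while Ldhb was called lower in addition. Of the 18 members called at 6 weeks, 16 were called in the same direction among the 22 at 8 weeks, which is 88.9% and 72.7% of the lists. Of all genes 57.2% and 70.8% were called at these weeks, most of them higher, and their overlap was not counted. Both lists also rest on the same pooled spread. An F test compared the CAC minus Con difference across the 4 weeks. It called Gpi1 (adjusted p = 0.0287) and Gbe1 (adjusted p = 0.0236), 2 of 32 members where 12.1% of all genes were called, and both had the largest difference at 6 weeks. With median-ratio scaling it called 0. It called 9 without CAC replicate 3 at 8 weeks, 7 without CAC replicate 2 at 4 weeks, 4 without CAC replicate 5 at 8 weeks, 1 without Con replicate 1, 2 or 4 at 2 weeks and 0 without CAC replicate 1 at 2 weeks.

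NCAC mice showed how the pathway stood in mice with a melanoma that does not cause wasting. In NCAC against Con 0 of 32 members and 0% of all genes were called at any week (limma). At an unadjusted p under 0.05 there were 1, 0, 3 and 1 members at 2, 4, 6 and 8 weeks. The share of all genes at that threshold was not counted. The F test over weeks also called 0 for NCAC, with 0 at an unadjusted p under 0.05. Against NCAC, CAC had 0 members called at 2 weeks (limma), where 1.17% of all genes were called, and without CAC replicate 2 the count was 2. An unadjusted p under 0.05 was met by 6 members, beside a share of all genes that was not counted. At 4 weeks Gpi1, Fbp2 and Gyg were higher and Eno1 was lower, 4 of 32 where 19.7% of genes were called, 18.1% higher and 1.59% lower, with 0 called without CAC replicate 2 and 2 without NCAC replicate 4. At 6 weeks 14 were higher and 4 lower, against 64.1% and 4.64% of genes, 68.7% together. At 8 weeks 14 were higher and 7 lower, against 67.5% and 4.8%, 72.3% together. The members without overlap between CAC and NCAC libraries numbered 1, 2, 12 and 4 at 2, 4, 6 and 8 weeks, against 9.58%, 14.3%, 41.8% and 25% of all genes. The same CAC libraries enter both sets of comparisons. At 8 weeks Pgm1 was 1.01 higher than in NCAC (adjusted p = 3.53e-07), Slc2a1 0.95 (adjusted p = 3.19e-05), Pgam1 0.78 (adjusted p = 4.6e-06) and Hk1 0.60 (adjusted p = 1.29e-06), and these 4 were also called higher with median-ratio scaling. Slc2a4 was 0.20 higher (adjusted p = 0.0258) and turned to -0.24 with median-ratio scaling (adjusted p = 0.013). Pgam2 (-0.52) and Pgm2 (-0.55) were lower with adjusted p = 0.0176 and 0.0146, and without CAC replicate 6 these were 0.123 and 0.0979. Median-ratio scaling left 6 higher and 13 lower at 6 weeks, where 2388 of all tested genes were higher and 2694 lower. At 8 weeks it left 4 higher and 17 lower, where 2729 of all tested genes were higher and 2768 lower.

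**Figure D5:**
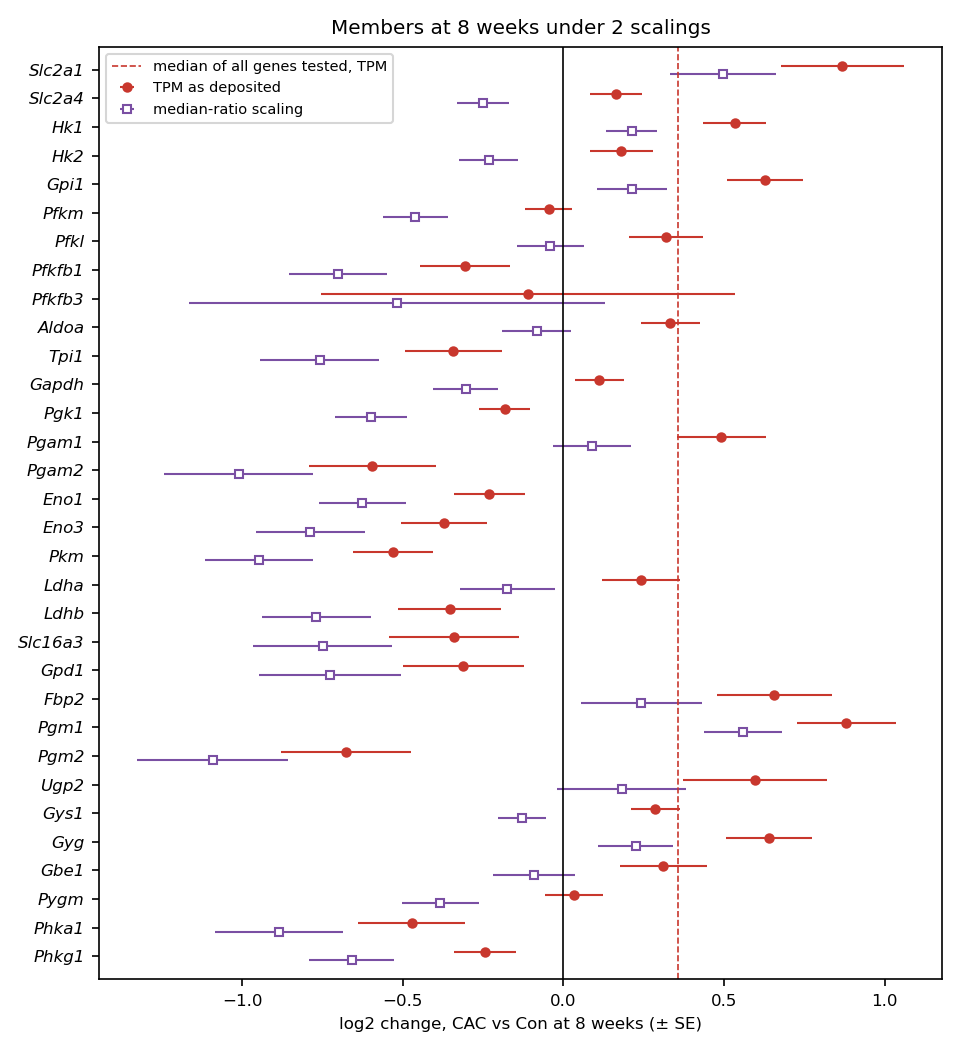
Log2 change of each member from Con to CAC at 8 weeks (points, bars ± SE) with TPM as deposited (red) and after median-ratio scaling (purple), and the median of all 12364 tested genes (dashed line). The scaling lowers the changes in this comparison, so that the 10 members called lower in TPM stay below 0 in both. Of the 12 called higher, Pfkl, Aldoa, Gys1 and Gbe1 cross to below 0 after scaling.

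The scale decided the direction for a part of the higher members, as the plot of both scalings shows. Slc2a1, Hk1 and Pgm1 were called higher at 8 weeks under both scales, and at 6 weeks Slc2a1, Hk1, Gpi1, Ugp2 and Gyg were. All 10 members called lower at 8 weeks and all 7 at 6 weeks were called lower under both. Since median-ratio scaling lowered the all-gene median by 0.34 at 8 weeks and 0.27 at 6 weeks, a lower member could hardly fail this check. With CAC and Con at 8 weeks fitted alone, 2 members were called lower. Slc2a4, Hk2, Pfkm, Gapdh, Eno1, Gpd1, Pygm and Slc16a3 were called lower at 8 weeks after median-ratio scaling only, and Pfkm, Pfkfb1, Pgk1, Eno1, Ldhb and Gpd1 were at 6 weeks. For Pfkm at 6 weeks the change was -0.16 in TPM (adjusted p = 0.0771) and -0.49 after scaling (adjusted p = 0.000526).

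Other genes of the same pathways, 52 regulators, minor isoforms and neighbours, were all in the table and 40 were tested. At 8 weeks 22 of the 40 were higher in CAC than in Con and 5 were lower, with a median change of 0.26 beside 0.36 for all genes, of which 65.3% were higher and 5.55% lower. Ppp1r3c, a subunit that brings protein phosphatase to glycogen, rose by 1.79 (SE 0.58, adjusted p = 0.00572), from 143 ± 45.9 TPM in Con (SD, n = 5) to 605 ± 381 TPM in CAC (SD, n = 7), and CAC libraries spread from 156 to 1124 TPM against 101 to 220 TPM in Con. The lysosomal glycogen-degrading enzyme Gaa rose by 0.89 (adjusted p = 8e-05), Tbc1d4, which holds back Slc2a4 vesicles, by 0.83 (adjusted p = 7.99e-05), and the hypoxia factor Hif1a by 0.80 (adjusted p = 3.3e-07). Prkag3, the regulatory subunit of AMP-activated kinase found in fast fibres, fell by 0.94 (SE 0.27, adjusted p = 0.00204), from a mean of 66.1 TPM in Con to 39.9 TPM in CAC. The changes of these genes are given on the scale of TPM only, on which the median of all genes was 0.36. For them no value is given with median-ratio scaling, without single libraries or with the 2 groups alone.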

How the data were processed

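Gastrocnemius poly(A) RNA was sequenced from 62 libraries prepared with a stranded mRNA kit, per the labels' protocols. The deposited table gives TPM values (transcripts scaled to a fixed total) for 47643 gene symbols, made by the authors on the mm10 build, per the submitters' processing notes; the software behind these values is not given in the sources used here. Groups come from the labels. The members and lists were chosen with earlier results of these data known. Genes at 1 TPM or more in at least 5 libraries, 12364 in all, were tested on log2(TPM + 1), a scale that understates changes of low genes. One limma model (version 3.58.1, R 4.3.3) held a mean for each of the 12 groups, with Benjamini-Hochberg adjustment over all genes and a threshold of 0.05. Ratios of 2 genes were compared with a two-sided exact permutation test. The method was tested on simulated data in which every group had the spread of Con. That test therefore cannot show how the wider spread of CAC affects the calls. Genes were located in GENCODE M21, whose exon lengths gave whole reads (within 0.02) for 77.89% to 79.54% of low values per library and thus the depth; no count test was run, since TPM is not a count. All members were described, with values per library for the 12 largest called changes at 8 weeks, and the 6 largest called changes among other pathway genes were to be named, of which 1 is not reported here. Alternatives changed the pseudocount, filter, scaling, mitochondrial transcripts, block, groups fitted and libraries. P-values measure the spread between libraries, which the labels call biological replicates.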

Additional observations from a re-analysis of the deposited data

Results flagged for a closer look

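In 30 of 384 groups of 4 to 10 libraries, taken gene by gene, 1 library stood far from the others of its group by Dixon's 95% criterion, which chance alone meets in about 1 in 20 groups. CAC replicate 2 at 4 weeks gave 8 of the 30, with low values for Eno3 (4385 TPM), Pkm (1760 TPM), Ldha (2047 TPM) and Pgm2 (404 TPM), and high values for Pgm1 (4.64 TPM), Ugp2 (1269 TPM), Gyg (738 TPM) and Gbe1 (47.3 TPM). CAC replicate 1 at 6 weeks was high for Hk2 (157 TPM), Eno1 (25.4 TPM) and Gyg (891 TPM). CAC replicate 6 at 8 weeks was high for Slc2a4 (486 TPM) and Gys1 (482 TPM). Slc16a3 was low in CAC replicate 1 at 4 weeks (72.6 TPM). At 2 weeks, before any member was called, CAC replicate 2 was high for Pfkm (2587 TPM), replicate 3 was high for Gpd1 (676 TPM) and replicate 5 was low for Pkm (2386 TPM).

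NCAC and Con libraries stood apart in other members. In NCAC, replicate 3 at 8 weeks was high for Gpi1 (373 TPM) and Aldoa (13253 TPM) and low for Eno1 (20.9 TPM), replicate 4 at 6 weeks was low for Pfkfb1 (23.5 TPM), replicate 3 at 2 weeks was high for Phkg1 (328 TPM), and replicate 2 at 2 weeks was high for Slc2a1 (8.27 TPM) and Slc2a4 (389 TPM) and low for Pgm2 (672 TPM). In Con, replicate 2 at 8 weeks was high for Slc2a1 (7.69 TPM) and Gys1 (335 TPM), replicate 1 at 4 weeks for Hk1 (3.15 TPM), replicate 2 at 2 weeks for Gpi1 (296 TPM) and replicate 1 at 6 weeks for Pfkfb3 (161 TPM).

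The difference between CAC and Con itself differed between weeks for 2 members, Gpi1 (adjusted p = 0.0287) and Gbe1 (adjusted p = 0.0236), by limma's F test, in 64 tests of members over both tumour groups.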

How the results depend on the processing

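Of 88 called member changes, 88 kept direction and call with a pseudocount of 0.1, 75 with no filter, 66 with mitochondrial transcripts left out, 60 with only the 2 groups fitted and 48 with median-ratio scaling, where 24 lost the call and 16 turned. Those that turned were, against Con, Slc2a4 (-0.038) and Gapdh (-0.12) at 6 weeks and Pfkl (-0.042), Aldoa (-0.083), Gys1 (-0.13) and Gbe1 (-0.092) at 8 weeks. Against NCAC they were Slc2a4 (-0.095), Aldoa (-0.0024), Gapdh (-0.17), Gys1 (-0.010) and Pygm (-0.055) at 6 weeks, and Slc2a4 (-0.24), Hk2 (-0.11), Aldoa (-0.18), Gys1 (-0.036) and Gbe1 (-0.088) at 8 weeks. Counts of called members moved by over 1.5 times as follows. At 4 weeks the 5 against Con became 3 with no filter, 2 with median-ratio scaling, 3 without mitochondrial transcripts and 1 with 2 groups, and the 4 against NCAC became 1, 2 and 1 under the last 3 of these. At 8 weeks 2 groups alone gave 12 against Con and 13 against NCAC. That fit has fewer libraries behind the spread. It also takes the spread only from the groups compared, of which CAC spread more widely in many members. Which of these lowered the counts was not tested. With the replicate number as a block, the 22 against Con became 13. Against NCAC at 2 weeks median-ratio scaling gave 1 in place of 0. Leaving out mitochondrial transcripts moved the split into higher and lower calls more than the totals. Of the 88 changes, 22 lost the call and 0 turned. Against Con, 11 higher and 7 lower became 8 and 13 at 6 weeks, and 12 and 10 became 7 and 14 at 8 weeks. Against NCAC, 14 and 4 became 8 and 12 at 6 weeks, and 14 and 7 became 10 and 12 at 8 weeks. The F test over weeks called 1 with no filter, 0 with median-ratio scaling and 0 without mitochondrial transcripts. The ratio of Eno1 to Eno3 against NCAC passed its exact permutation test with median-ratio scaling, at 0.22 (adjusted p = 0.0471) in place of 0.20. Such a ratio moves with the scaling of a library only through the added 1. The cause of the other moves was not tested.

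Leaving out 1 library gave 0 to 0, 1 to 6, 13 to 20 and 15 to 24 members called against Con at 2, 4, 6 and 8 weeks, 0 to 2, 0 to 6, 16 to 20 and 15 to 25 against NCAC, and 0 to 9 for the change over weeks. Log2 ratios against Con then ranged from 0.083 to 0.164 for Eno1/Eno3, 0.296 to 0.435 for Hk1/Hk2, -0.807 to -0.454 for Ldhb/Ldha, -0.265 to 0.5 for Pfkfb3/Pfkfb1, 0.272 to 0.421 for Pfkl/Pfkm, 0.865 to 1.26 for Pgam1/Pgam2 and 0.639 to 0.836 for Slc2a1/Slc2a4. Against NCAC they were 0.142 to 0.235, 0.237 to 0.343, -0.891 to -0.538, -0.188 to 0.727, 0.376 to 0.615, 1.08 to 1.47 and 0.62 to 0.881. NCAC against Con had 0 calls under each alternative (limma).

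Replicate numbers are shared between groups, but did not pair the libraries: deviations of libraries with the same number correlated at 0.0017 on average, and 13 of 60 correlated best with their own number. With the number as a block, 13 members were called against Con at 8 weeks, 11 higher and 2 lower, of which 12 were among the 22; CAC replicates 6 and 7 have no partner.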
